A study of Mus musculus with 15 samples.

Results

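The genes described here are the 10 core members of the hypoxia-sensing HIF pathway, taken by name as a fixed list: Hif1a, Epas1, Arnt, Hif1an, Egln1, Egln2, Egln3, Vhl, Slc2a1 and Vegfa. All 10 were found among the 21883 protein-coding genes placed on the mm10 chromosomes used. Chromatin accessibility around them was read from ATAC-seq peak lists of sorted haematopoietic stem cells (HSC) of adult mice treated with poly(I:C), a double-stranded RNA that switches on the Mx1 promoter and so the Mx1-Cre recombinase. There was 1 library per genotype, each from 50000 sorted cells: WT (Mx1-Cre-/-;mTORflox/flox), KO (Mx1-Cre+/-;mTORflox/flox) and KI (Mx1-Cre+/-;mTORflox/knockin). All 3 carried floxed mTOR and received poly(I:C), and KO and KI also carried Cre, so that an effect of Cre cannot be told apart from that of the mTOR alleles in any contrast with WT. The WT and KO libraries, and not the KI library, are marked in the labels as re-analysed, and the KI allele cannot be told apart from whatever that mark separates. Mx1-Cre is not restricted to HSC, and the labels do not say how completely the alleles recombined or how many mice gave each library. At the start of Mtor itself the WT list had a peak (score 341) and the KI list had one (score 210.3), and KO had none.

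HIF is a transcription factor made of an oxygen-regulated alpha subunit, HIF1A or EPAS1 (HIF2A), and the constant partner ARNT. In the presence of oxygen the prolyl hydroxylases EGLN1, EGLN2 and EGLN3 mark the alpha subunit for the VHL ubiquitin ligase, and the asparaginyl hydroxylase HIF1AN blocks its contact with coactivators. In low oxygen the alpha subunit escapes both and binds hypoxia response elements with the core ACGTG or GCGTG. Stem cells of the marrow lie in tissue of low oxygen tension, and mTOR signalling is a textbook regulator of HIF1A synthesis and of HIF targets such as the glucose transporter gene Slc2a1 and the growth factor gene Vegfa.

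The start regions are shown first for 4 genes. In Hif1an and Egln1 the 3 lists differed at the start. In Hif1a and Egln2 all 3 lists had a peak over it, and these were among the highest-scoring start peaks of the 10 genes. Each is the 250 bases before the RefSeq start (GRCm38.p6, the assembly of mm10), written 5′ to 3′ on the gene's strand, with hypoxia response element cores, ACGTG or GCGTG on either strand, in capitals.
Hif1an (chr19:44562604-44562853, plus strand): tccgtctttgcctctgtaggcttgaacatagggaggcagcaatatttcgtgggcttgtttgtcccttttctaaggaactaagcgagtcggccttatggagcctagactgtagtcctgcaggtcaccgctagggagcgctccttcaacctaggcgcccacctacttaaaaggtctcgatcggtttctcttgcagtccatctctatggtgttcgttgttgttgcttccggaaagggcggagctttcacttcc
Egln1 (chr8:124949255-124949504, minus strand): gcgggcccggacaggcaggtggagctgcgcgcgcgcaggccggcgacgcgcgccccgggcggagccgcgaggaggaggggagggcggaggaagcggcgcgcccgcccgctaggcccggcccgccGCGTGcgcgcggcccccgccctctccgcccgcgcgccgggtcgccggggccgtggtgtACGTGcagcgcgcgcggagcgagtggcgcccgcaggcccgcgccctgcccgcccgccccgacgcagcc
Hif1a (chr12:73907617-73907866, plus strand): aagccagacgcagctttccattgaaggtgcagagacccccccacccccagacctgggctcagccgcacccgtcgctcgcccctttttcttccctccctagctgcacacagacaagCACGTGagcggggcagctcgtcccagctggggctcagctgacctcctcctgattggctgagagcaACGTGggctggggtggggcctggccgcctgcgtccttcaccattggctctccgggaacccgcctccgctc
Egln2 (chr7:27166803-27167052, minus strand): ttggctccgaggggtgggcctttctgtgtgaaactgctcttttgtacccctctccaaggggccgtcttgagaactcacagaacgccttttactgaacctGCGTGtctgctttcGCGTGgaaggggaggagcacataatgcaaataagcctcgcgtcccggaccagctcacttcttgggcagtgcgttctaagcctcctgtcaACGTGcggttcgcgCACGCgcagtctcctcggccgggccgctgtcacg

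Such a core was present upstream of 7 of the 9 members with a RefSeq start in the table used, at 8 of their 11 starts. It was present in 38.6% of all 32851 starts, 250 bases each, so it is common. That share is per start and was not matched for base composition, and both forms of the core hold a CG pair. The median over all starts was 52.4% G and C, and the members' windows ran from 48% to 86%. Those of Hif1an, Egln3 and the inner start of Egln2 lay below that median and the others above it. Hif1a held 3 matches, first bases 135, 134 and 70 bases before the start. The pair at 135 and 134 is a palindromic CACGTG, read once on each strand, which is also an E-box, found in 6.02% of all starts. Egln1 held 2 (126 and 68 bases before), the outer start of Egln2 held 4 (151, 137, 48 and 34) and its inner start 1 (116), Slc2a1 held 2 (61 and 36), Arnt 1 (29) and Egln3 1 (229). The windows of Hif1an and Vhl and the outer start of Vegfa had none of these letters. Vegfa counted through a start listed inside the gene, which had no peak in any list. The Hif1an window held the ETS-factor core CCGGAA, in overlapping matches on both strands, and no other member's window did, against 12% of all starts. These are letter matches and were not tested as binding sites.

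A start peak is here a peak within 1 kb of a RefSeq start. Epas1 has no start or strand in the table used, so either annotated end of the gene was taken for it. In WT 9 of the 10 genes had a start peak, in KO 9 and in KI all 10, where the shares over all protein-coding genes were 45.5%, 45.3% and 52.7%. The score is the value the authors deposited for each peak, read as 10 times the negative log10 of its p-value. The percentile is the share of a list's peaks that scored at or below it. Scores and percentiles describe a peak within its own list. The lists hold 17316 (WT), 19189 (KO) and 28391 (KI) peaks, so a difference in either number between lists was not read as a change.

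In 8 genes all 3 lists had a start peak, a pattern found in 40.5% of all genes. The 2 exceptions were Hif1an, with a start peak in WT and KI and none in KO, and Egln1, with one in KO and KI that WT lacked. These patterns were found in 3.67% and 3.56% of all genes. Thus 1 of the 9 WT start peaks was lost in KO, where 10.3% of all genes with a WT start peak lost it, and 0 of 9 were lost in KI, against 2.93%. The 1 gene without a WT start peak gained one in KO, against 8.36% of such genes, and in KI, against 15.7%. Because each genotype is a single library, none of these differences has a replicate error or a test.

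**Figure D1:**
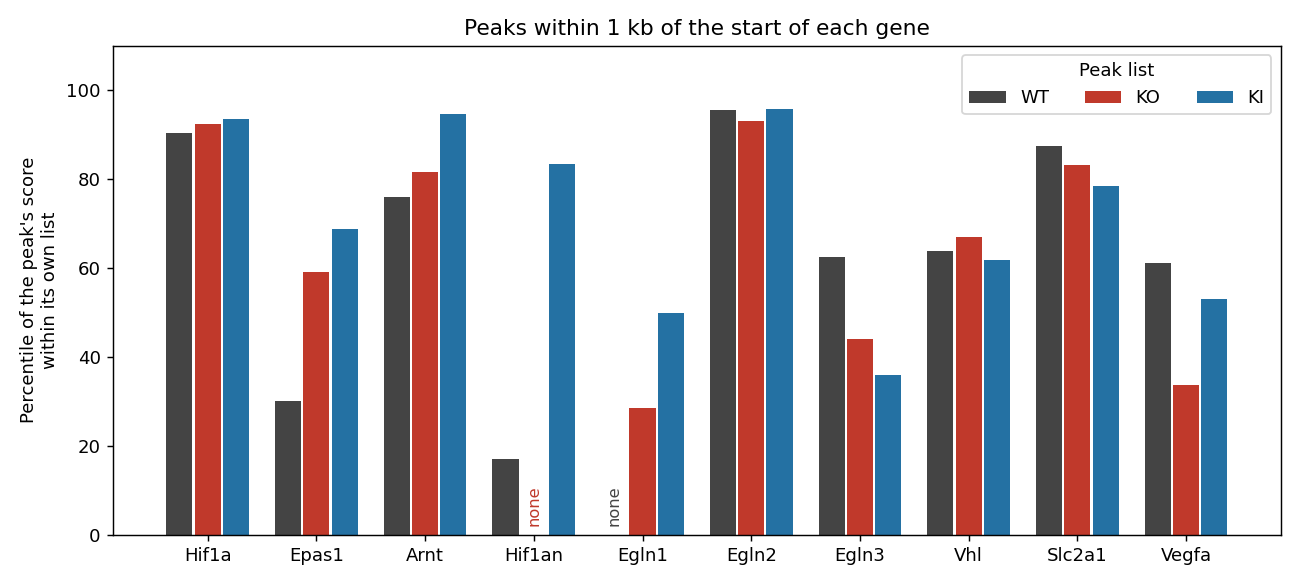
Percentile of the start peak's score within its own list (vertical axis, percent) for each gene in the WT, KO and KI lists; "none" marks a list without a peak within 1 kb of the start. Hif1an has none in KO and Egln1 none in WT, and the Egln2 peaks stand at percentiles 95.6, 93.2 and 95.8.

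Hif1a encodes the oxygen-regulated alpha subunit found in most cells. It spans chr12:73901324-73947554, and its RefSeq start in the table used, 73907867, lies 6543 bp inside that span. A strong peak covered this start in every list. The WT peak at 73907474-73908648 (1175 bp, score 243, percentile 90.3) overlapped those of KO at 73907337-73908098 (762 bp, score 240.2, percentile 92.5) and of KI at 73907155-73908571 (1417 bp, score 338, percentile 93.6). The peaks thus stood in the top 10% of each list, and the KI peak was the widest of all peaks near the 10 genes. A KO peak (73881567-73881822, 256 bp, score 67.7, percentile 30.4) lay 26045 bp before the start and overlapped no peak of the other lists. A KI peak (73953691-73954211, 521 bp, score 62.8, percentile 21.9) lay past the gene's end and was found in KI alone. A shared region lay at the start of the neighbouring gene Snapc1, which encodes a subunit of a small nuclear RNA activating complex. It spanned 73964303-73964854 in WT (552 bp, score 98.7, percentile 52.5), 73964323-73964867 in KO (545 bp, score 104, percentile 61) and 73964171-73964895 in KI (725 bp, score 182, percentile 77.7). The differences near Hif1a were therefore confined to 2 weak peaks, each in 1 list.

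Epas1 encodes the HIF2A subunit and spans chr17:86753864-86833410. All 3 lists had the same pair of regions there and no other, and no protein-coding gene other than Epas1 lies in the window. The peak at the lower-coordinate end of the gene stopped 122 bp (WT), 52 bp (KO) and 108 bp (KI) short of it. WT placed it at 86753234-86753742 (509 bp, score 70.6, percentile 30), KO at 86753316-86753812 (497 bp, score 101, percentile 59.2) and KI at 86752973-86753756 (784 bp, score 141, percentile 68.7). The other region lay farther out, with its nearest edge 21444 (WT), 21453 (KO) and 21343 bp (KI) from the gene. Its bounds were 86732030-86732420 in the WT list (391 bp, score 94.3, percentile 49.8), 86732037-86732411 in KO (375 bp, score 68.2, percentile 31) and 86731872-86732521 in KI (650 bp, score 126, percentile 64.4). No peak of any list lay inside the gene, although it is the longest of the 10 genes.

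Arnt encodes the partner that both alpha subunits need to bind DNA and spans chr3:95434367-95497240. Its start peak was the only region shared by all lists. In WT it lay at 95434122-95434754 (633 bp, score 158, percentile 75.9), in KO at 95434026-95434825 (800 bp, score 163, percentile 81.6) and in KI at 95434076-95434837 (762 bp, score 358, percentile 94.6). All of these stood in the top 25% of their list. KI had a further pair of weak peaks that overlapped none in WT or KO. A KI peak (95427484-95427772, 289 bp, score 58.9, percentile 15.8) lay at the predicted gene Gm4349, and a KI peak (95523758-95524087, 330 bp, score 55.9, percentile 10.5) at Gm40096.

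Among the hydroxylases, Hif1an, which encodes the asparaginyl hydroxylase, differed most between the lists. It spans chr19:44562854-44576274. It was the only member without a region common to all 3 lists. A WT peak (44562649-44563112, 464 bp, score 60.5, percentile 17.1) and a KI peak (44562591-44563107, 517 bp, score 221, percentile 83.4) both covered the start. The WT peak was thus in the lowest 25% of its list by score, while the KI peak was in the top 25% of its own. KO had no peak within 19626 bp of the WT peak. Of the 250 bases printed above, the WT peak covered 205 and the KI peak all 250. In the lowest 25% of WT scores, where the WT peak stood, 57.4% of all WT peaks were absent from KO. In the top 25% of KI scores, 1.73% of all KI peaks were absent from KO, and the Hif1an peak was 1 of 13 KI peaks near the members in that class and the only one absent.

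The other regions near Hif1an also differed. A WT peak (44554779-44555178, 400 bp, score 53.4, percentile 5.73) and a KI peak (44555371-44555525, 155 bp, score 82.5, percentile 42.6) lay in Ndufb8, a gene of respiratory complex I, 192 bp apart. Each counted as absent from the other list, and KO had none nearby. Past the end of Hif1an, a KO peak (44582739-44582950, 212 bp, score 61.3, percentile 20.8) and a KI peak (44582601-44583028, 428 bp, score 119, percentile 61.7) overlapped, and the nearest WT peak was 19488 bp from the KI peak. The KO list therefore had 1 peak in the whole window, against 2 in WT and 3 in KI.

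Egln1 encodes PHD2, the main oxygen sensor of the pathway, and spans chr8:124908587-124949254 on the minus strand. At its start a KO peak (124949431-124949833, 403 bp, score 66.2, percentile 28.5) and a KI peak (124949274-124949692, 419 bp, score 92.9, percentile 49.8) overlapped. Both lay just before the start, with edges 177 bp (KO) and 20 bp (KI) away, and covered 74 and 231 of the 250 bases printed above. The nearest WT peak was 27012 bp from the KI peak. It lay inside the gene, where a WT peak (124921756-124922261, 506 bp, score 65.2, percentile 23.4) and a KO peak (124921896-124922186, 291 bp, score 55.3, percentile 10.1) overlapped and KI had none. Of these 2 sites WT had only the inner one, KI only the start and KO both, all with scores under 100.

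The Egln1 start region is extreme in base composition, with 86% G and C, and 16 of all 32851 starts had more. Of the 405 starts with at least 80% G and C, 66.4% had a peak in WT, 65.7% in KO and 75.8% in KI. Of the 136 among them without a WT peak, 20.6% had one in KO and 41.2% in KI. Over the 2103 starts with 60 to 70% G and C and no WT peak these shares were 15.5% and 28.8%. At 70 to 80% G and C they were 17.8% and 35.1%, and at 50 to 60% they were 7.02% and 13.4%. Below 50%, where 12090 starts had no WT peak, they were 2.27% and 4.69%. The part of base composition in the Egln1 difference was not tested.

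The remaining regions near Egln1 lay at neighbouring genes. The region at Gnpat and 2810004N23Rik was shared. This peak ran over 124862688-124863337 in WT (650 bp, score 123, percentile 64), 124862616-124863413 in KO (798 bp, score 128, percentile 71.6) and 124862611-124863435 in KI (825 bp, score 167, percentile 75). The region at Exoc8 and Sprtn was shared as well. The WT peak at 124897460-124898086 (627 bp, score 114, percentile 60.1) overlapped those of KO at 124897363-124898271 (909 bp, score 121, percentile 69.1) and of KI at 124897255-124897993 (739 bp, score 168, percentile 75.1). A KI peak (124866557-124867043, 487 bp, score 52.1, percentile 3.75) lay inside Gnpat, an ether lipid synthesis gene, in KI alone.

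Egln2 encodes PHD1 and spans chr7:27158658-27166802 on the minus strand. It had the same 4 regions in all 3 lists, with no difference in presence. The peak over its start was the highest-scoring start peak among the 10 genes in each list. It spanned 27166087-27167493 in WT (1407 bp, score 314, percentile 95.6), 27166099-27167464 in KO (1366 bp, score 247, percentile 93.2) and 27166127-27167528 in KI (1402 bp, score 389.8, percentile 95.8). Its width was 1366 to 1407 bp, where the median widths of the lists were 590, 514 and 477 bp. A weaker shared peak lay inside the gene. WT placed it at 27159803-27160363 (561 bp, score 102, percentile 54.2), KO at 27159793-27160227 (435 bp, score 97.5, percentile 57.1) and KI at 27159900-27160234 (335 bp, score 148, percentile 70.7). A start region of the neighbour Rab4b, a trafficking GTPase gene, gave the highest scores of all peaks near the 10 genes. Its bounds were 27178274-27179370 in the WT list (1097 bp, score 389, percentile 98.1), 27178462-27179287 in KO (826 bp, score 411, percentile 99) and 27178252-27179437 in KI (1186 bp, score 533, percentile 98.8). The fourth region, at Snrpa and BC024978, was strong as well. In WT it lay at 27195494-27196733 (1240 bp, score 199.9, percentile 84.2), in KO at 27195635-27196585 (951 bp, score 251, percentile 93.5) and in KI at 27195526-27196645 (1120 bp, score 404, percentile 96.2).

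Egln3 encodes PHD3, itself a known HIF target, and spans chr12:54178981-54203874 on the minus strand. All lists had a peak over its start. This peak ran over 54203354-54204072 in WT (719 bp, score 119.5, percentile 62.5), 54203585-54204152 in KO (568 bp, score 80, percentile 44) and 54203426-54204033 in KI (608 bp, score 74.6, percentile 35.9). Within its own list it stood above the median score in WT and below it in KO and KI. With KI reduced to the 17316 highest-scoring peaks, the Egln3 start peak was no longer in it. A region inside the gene was shared. The WT peak at 54187642-54188562 (921 bp, score 66.1, percentile 24.7) overlapped those of KO at 54187634-54188489 (856 bp, score 69.8, percentile 33.1) and of KI at 54187733-54188554 (822 bp, score 71.8, percentile 33). Another lay beyond the gene's end, 40706 (WT), 40719 (KO) and 40785 bp (KI) past the start. It spanned 54162405-54163168 in WT (764 bp, score 125, percentile 64.8), 54162412-54163155 in KO (744 bp, score 104, percentile 61.1) and 54162519-54163089 in KI (571 bp, score 174, percentile 76.4). A WT peak (54164502-54165056, 555 bp, score 51.7, percentile 2.88) lay close to that region in WT alone, and a KO peak (54191990-54192495, 506 bp, score 59.6, percentile 17.8) lay inside the gene in KO alone. No other protein-coding gene lies in the Egln3 window.

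Vhl encodes the substrate receptor of the ubiquitin ligase that removes hydroxylated alpha subunits, and spans chr6:113623994-113631634. Its start peak was shared, with percentiles within a narrow range. WT placed it at 113623686-113624300 (615 bp, score 123, percentile 63.9), KO at 113623692-113624388 (697 bp, score 116, percentile 66.9) and KI at 113623788-113624452 (665 bp, score 119, percentile 61.8). The other regions of the window lay at Brk1 and Irak2. At Brk1, an actin-regulator gene, WT had 2 peaks where KO and KI had 1. A WT peak (113604509-113604884, 376 bp, score 53, percentile 5.12) and a WT peak (113604933-113605406, 474 bp, score 53.5, percentile 5.84) both overlapped a KO peak (113604349-113605208, 860 bp, score 91.3, percentile 52.9). A KI peak (113604855-113605318, 464 bp, score 72.1, percentile 33.4) overlapped both WT peaks too.

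Irak2, a kinase of Toll-like receptor signalling, held the rest. Close to an annotated start or end of Irak2 all lists had a peak. Its bounds were 113638157-113638620 in the WT list (464 bp, score 65.7, percentile 24.2), 113638167-113639136 in KO (970 bp, score 167, percentile 82.4) and 113638142-113638733 in KI (592 bp, score 179, percentile 77.3). A region farther into Irak2 was also shared. In WT it lay at 113668509-113669095 (587 bp, score 113, percentile 59.6), in KO at 113668638-113669101 (464 bp, score 62.1, percentile 22.2) and in KI at 113668662-113669095 (434 bp, score 101, percentile 54). At the edge of the window a WT peak (113681212-113681643, 432 bp, score 80.7, percentile 39.9) and a KI peak (113681316-113681577, 262 bp, score 72.2, percentile 33.5) overlapped, and KO had none within 12110 bp of the WT peak. A KI peak (113649445-113649808, 364 bp, score 51.6, percentile 2.88) and a KI peak (113675392-113675585, 194 bp, score 55.1, percentile 8.87) were found in KI alone. None of the Vhl window's differences in presence lay at Vhl itself.

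The HIF targets Slc2a1 and Vegfa kept their start peaks in all lists. Slc2a1, which encodes the glucose transporter GLUT1, spans chr4:119108745-119137330, and its start peak also overlapped the predicted gene Gm52706. This peak ran over 119108237-119109523 in WT (1287 bp, score 221, percentile 87.5), 119108512-119109289 in KO (778 bp, score 171, percentile 83.3) and 119108409-119109473 in KI (1065 bp, score 186, percentile 78.5). All 3 stood in the top 25% of their list. Inside the gene another shared region lay 18561 (WT), 18365 (KO) and 18172 bp (KI) past the start. The WT peak at 119127306-119127670 (365 bp, score 62.7, percentile 20.2) overlapped those of KO at 119127110-119127716 (607 bp, score 82.1, percentile 45.8) and of KI at 119126917-119127639 (723 bp, score 118, percentile 61.6). A KO peak (119115754-119116073, 320 bp, score 77.4, percentile 41.3) lay inside the gene in KO alone, the highest-scoring KO peak near the members that WT lacked. A KI peak (119125521-119125865, 345 bp, score 68.3, percentile 29.4) lay inside it in KI alone.

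Upstream of Slc2a1 a region within the predicted gene Gm35510 was shared. It spanned 119077085-119077483 in WT (399 bp, score 57.7, percentile 12.8), 119077049-119077517 in KO (469 bp, score 83.6, percentile 47.2) and 119077090-119077596 in KI (507 bp, score 75.2, percentile 36.4). Nearer to the gene, a KO peak (119082535-119082872, 338 bp, score 55.7, percentile 10.8) and a KI peak (119082834-119082993, 160 bp, score 73.1, percentile 34.5) overlapped at their edges, with the nearest WT peak 5051 bp from the KO peak. At the other end of the window the start region of Zfp691, a zinc finger gene, was shared. WT placed it at 119173939-119174599 (661 bp, score 204, percentile 84.9), KO at 119174025-119174611 (587 bp, score 166, percentile 82.2) and KI at 119173398-119174615 (1218 bp, score 260.3, percentile 88). Slc2a1 thus had 4 shared regions of 7. The 3 others were in mutant lists alone, 1 in KO, 1 in KI and 1 in both. With overlapping peaks merged, 37.5% of all regions held a peak of every list. Another 7.99% were in KO alone, 29.3% in KI alone and 10.7% in KO and KI, so the Slc2a1 counts are not read as particular to it.

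Vegfa encodes the main angiogenic growth factor of the HIF response and spans chr17:46016993-46032377 on the minus strand. Its outer start was covered in all lists. Its bounds were 46032179-46033041 in the WT list (863 bp, score 117, percentile 61.1), 46032126-46032616 in KO (491 bp, score 70.2, percentile 33.6) and 46032166-46032584 in KI (419 bp, score 98.6, percentile 53). Upstream lay a shared region with no annotated gene within 1 kb. In WT it lay at 46073711-46074364 (654 bp, score 150.1, percentile 73.4), in KO at 46073665-46074461 (797 bp, score 115, percentile 66.7) and in KI at 46073688-46074610 (923 bp, score 241, percentile 85.9). Between them a KO peak (46063241-46063601, 361 bp, score 59.1, percentile 16.7) and a KI peak (46063327-46063742, 416 bp, score 73, percentile 34.4) overlapped, and the nearest WT peak was 9968 bp from the KI peak. No other protein-coding gene lies in the Vegfa window.

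**Figure D2:**
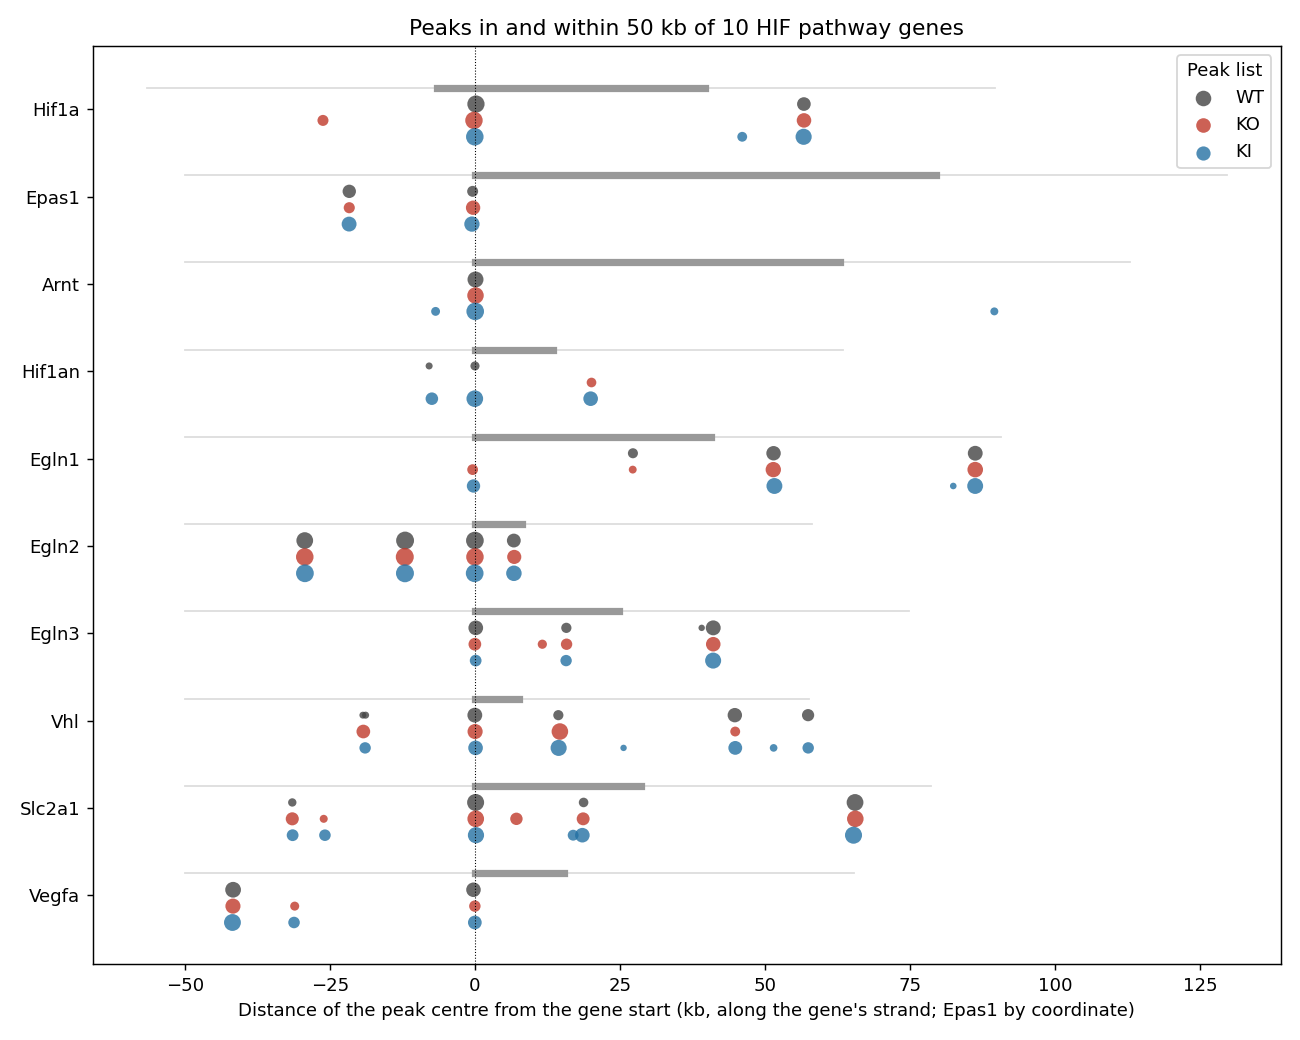
Peaks in and within 50 kb of each gene, by the distance of the peak's centre from the gene start (horizontal axis, kb; for Epas1 by coordinate from its lower end), with WT, KO and KI in rows from top to bottom under each gene. The thick bar is the gene, the thin line the 50 kb flanks, and larger points stand for higher percentiles; the column at 0 is filled in every list except for KO at Hif1an and WT at Egln1.

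In all, 30 WT, 32 KO and 38 KI peaks lay in the 10 windows, or 0.173%, 0.167% and 0.134% of their lists. Per gene the number ran from 1 to 6 in WT (median 2.5), 1 to 6 in KO (median 3.5) and 2 to 7 in KI (median 3). Over all protein-coding genes the medians were 2, 2 and 3. Vhl had the most in WT (6) and KI (7) and Slc2a1 the most in KO (6). Arnt had the fewest in WT (1) and, with Hif1an, in KO (1), and Epas1 the fewest in KI (2). Inside the gene bodies lay 12 WT, 13 KO and 12 KI peaks, and without a genome annotation of exons these were not assigned to exons or introns.

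The peaks formed 44 merged regions, of which 24 (54.5%) held a peak of every list, against 37.5% of all 32764 merged regions. Another 8 (18.2%) held a KI peak alone, against 29.3%, while 4 (9.09%) were in KO and KI alone, against 10.7%, and 3 (6.82%) in KO alone, against 7.99%. A further 2 (4.55%) were in WT and KI, against 7.71%, 2 (4.55%) in WT alone, against 5.52%, and 1 (2.27%) in WT and KO, against 1.31%. The shares of these 5 smaller classes thus lay near those over all regions. The shares over all regions were not limited to regions near genes or matched for score. Regions in KO and KI without WT lay at the Egln1 start, downstream of Hif1an, upstream of Slc2a1 and upstream of Vegfa. Egln2 and Epas1 had none but shared regions.

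**Figure D3:**
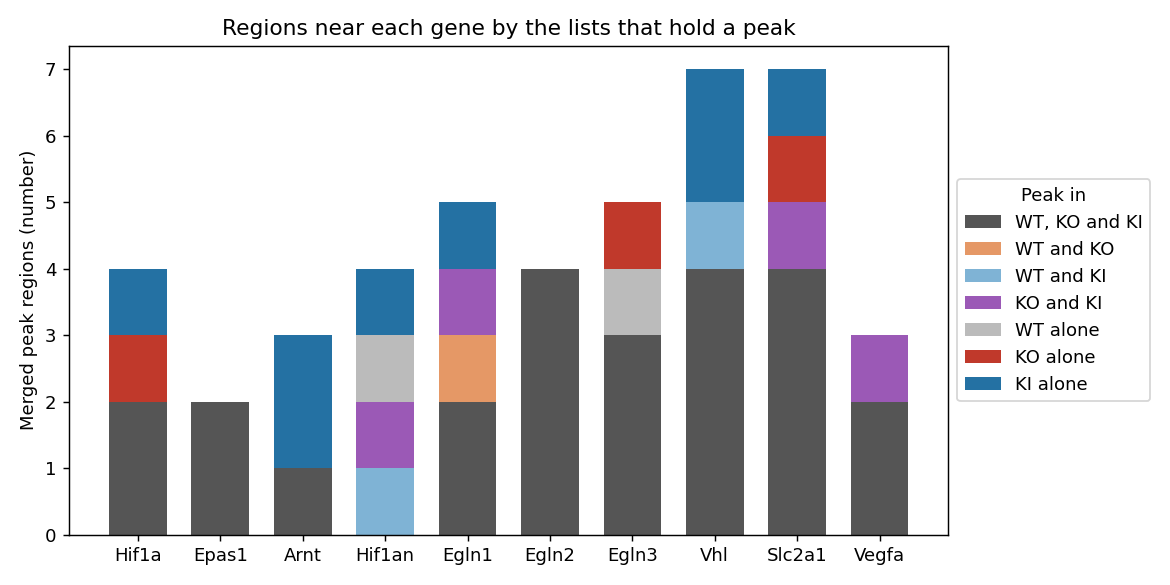
Number of merged peak regions near each gene (vertical axis), split by the lists that hold a peak in the region. Egln2 and Epas1 have shared regions alone, 4 and 2 of them, and Hif1an has none that is common to all 3 lists.

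Of the 30 WT peaks near the members, 4 were absent from KO (13.3%), against 25.5% of all WT peaks, and 3 from KI (10%), against 13.1%. Of the 32 KO peaks, 7 were absent from WT (21.9%), against 32.4%, and 4 from KI (12.5%), against 16%. Of the 38 KI peaks, 12 were absent from WT (31.6%), against 46.5%, and 10 from KO (26.3%), against 43.2%. With the lists as deposited, the share absent was thus below that of the whole list in each of the 6 directions, which share the 3 lists and are not independent. This did not hold for absence from KI when the lists were made equal in size. The whole lists were not limited to peaks near genes or matched for score. Within their lists the members' peaks had median percentiles of 56.9 (WT), 55 (KO) and 61.7 (KI).

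The absent peaks were mostly weak, as they were over all peaks. Of all WT peaks in the lowest 25% of scores, 57.4% were absent from KO, against 0.393% in the top 25%. For all KI peaks absent from WT these shares were 83.1% and 2%. Near the members, WT peaks absent from KO scored 80.7 at most, KO peaks absent from WT 77.4 at most and WT peaks absent from KI 65.2 at most. KO peaks absent from KI also scored 77.4 at most. KI held the higher ones, with the Hif1an start absent from KO (score 221) and, absent from WT, the region downstream of Hif1an (119) and the Egln1 start (92.9). The other absent KI peaks scored 82.5 at most. The 25 WT peaks with a peak in both other lists ranged from percentile 5.12 to 98.1, the 24 such KO peaks from 22.2 to 99 and the 24 such KI peaks from 33 to 98.8. The 8 KI peaks found in no other list scored from 51.6 to 82.5, the 3 such KO peaks from 59.6 to 77.4 and the 2 such WT peaks 51.7 and 53.4.

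The lists differ in length, and so each was also reduced to its 17316 highest-scoring peaks. The KI list then ended at a score of 78.0, and 24 of its peaks lay near the members. Of these, 3 were absent from WT (12.5%, against 25.3% of all KI peaks at that size), namely the Egln1 start and 2 peaks near Hif1an. Another 2, both near Hif1an, were absent from KO (8.33%, against 25.5%). In the other direction 9 of 30 WT peaks were absent from KI (30%, against 24.6%) and 10 of 32 KO peaks (31.2%, against 24.7%). Between WT and KO the counts stayed at 4 and 7, with 28.7% of all peaks absent either way. The order between KI and WT therefore turned: with the full lists 12 KI peaks were absent from WT and 3 WT peaks from KI, and at equal size 3 and 9. Between KI and KO it turned as well, from 10 and 4 to 2 and 10.

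**Figure D4:**
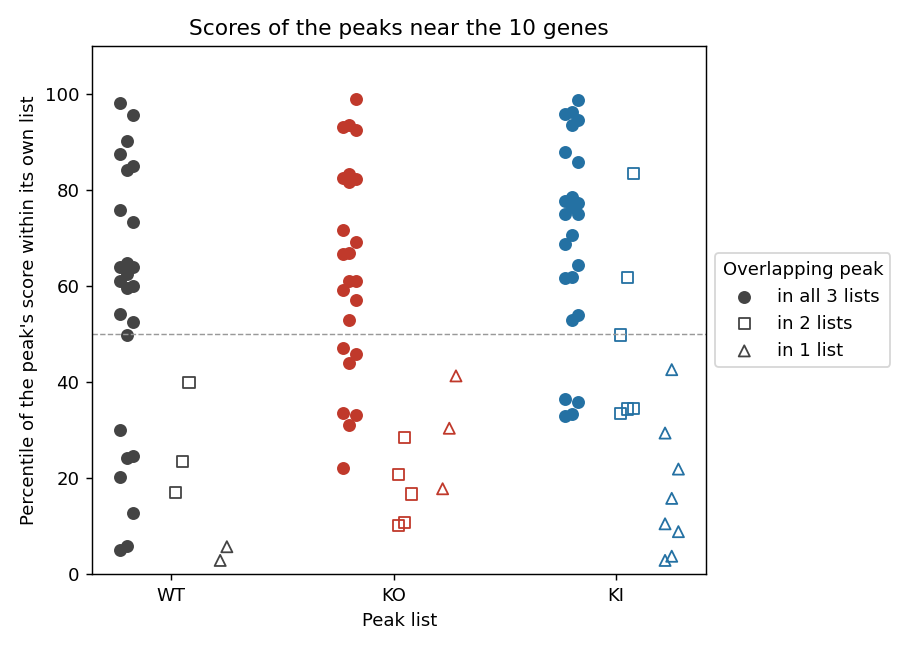
Percentile of each peak's score within its own list (vertical axis, percent) for the 30 WT, 32 KO and 38 KI peaks near the 10 genes, by the number of lists with an overlapping peak (filled circles, all 3; open squares, 2; open triangles, 1). Triangles lie below the list median, marked by the dashed line, in every list, and the open square at 83.4 in KI is the Hif1an start.

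Start peaks scored higher within their lists than the other peaks near the members. The median percentile was 63.9 for 9 WT start peaks and 49.8 for 21 others, 66.9 for 9 KO start peaks and 47.2 for 23 others, and 73.6 for 10 KI start peaks and 48.3 for 28 others. They were also wider, with medians of 719, 697 and 713.5 bp against 555, 545 and 497 bp. The others are not all distant from gene starts. Of them, 10 in WT, 8 in KO and 11 in KI lay within 1 kb of a start or end of another gene. The same contrast over all genes is not given, so it is not read as particular to the members.

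Other genes of the pathway were read from a list of 60 genes: further regulators such as Hif3a, Cul2 and Cited2, and textbook targets such as Ldha and Pgk1. A start peak was present for 47 of the 60 in WT, 44 in KO and 51 in KI, against 45.5%, 45.3% and 52.7% of all protein-coding genes. In KO 4 of the 47 were lost, against 10.3% of all genes, and 1 of the other 13 was gained, against 8.36%. In KI 0 of the 47 were lost, against 2.93%, and 4 of 13 were gained, against 15.7%. All 4 lost in KO were kept in KI, as were 804 of the 1028 lost in KO over all protein-coding genes.

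The 4 were Slc16a3, a lactate exporter gene (52.9 in WT, 56.2 in KI), Edn1, the endothelin gene (79.9 and 101.8), Angpt1, the gene of a Tek ligand, read at either gene end (69.8 and 75.4), and Meis1, a stem cell homeobox gene that activates Hif1a (68.4 and 84.0). Stc2, a stanniocalcin gene, had a start peak in KO (63.5) and KI (53.6) that WT lacked. Kdr, a VEGF receptor gene (90.7), P4ha2, a collagen prolyl hydroxylase gene (75.4), and Cdkn1a, a cell cycle inhibitor gene (52.3), had one in KI alone. In the lists where they were present, these peaks stood at percentiles of 54.6 or lower. The genes that follow were named after their values were seen. Of them, Eloc and Cul2 were read at either gene end. All partners of VHL in the ubiquitin ligase that were on the list had a start peak in every list: Elob (118.6 in WT, 110.2 in KO and 174 in KI), Eloc (309, 277 and 469), Cul2 (185, 209 and 251) and Rbx1 (349, 245 and 405). So had the coactivators Ep300 and Crebbp and the glycolytic enzyme genes Hk1, Hk2, Pfkl, Aldoa, Tpi1, Gapdh, Pgk1, Pgam1, Eno1 and Ldha. Hif3a and Arnt2, paralogues of the HIF subunits, and Epo, the erythropoietin gene, had none in any list.

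As a check of the labelled cell type, start peaks were counted at 14 HSC genes. WT had 8, KO 4 and KI 7, against 45.5%, 45.3% and 52.7% of all protein-coding genes. In KO 4 of the 8 WT start peaks were lost, against 10.3% of all genes with one, and in KI 1 of 8, against 2.93%. Kit, Mecom, Hlf and Tal1 had one in every list, and Slamf1, Gata2, Tek, Fgd5, Ly6a and Lmo2 in none. Procr was present in WT alone (92.7), while Meis1, Runx1 and Cd34 were present in WT and KI and absent from KO. The WT peaks of these genes stood at percentiles 48.9 (Procr), 27.4 (Meis1), 50.7 (Runx1) and 31.3 (Cd34). Those kept in KO stood at 29.9 (Kit), 67.8 (Mecom), 13.0 (Hlf) and 56.6 (Tal1). Of all WT peaks, 34.4% from percentile 25 to 50 and 9.91% from 50 to 75 were absent from KO. The 10.3% above is over start peaks of any score. Of 31 markers of other blood, endothelial and stromal cells, 2 had a start peak in WT (Ebf1 and Pf4), 5 in KO and 10 in KI, all lower shares than over all genes. Of the 29 without one in WT, 4 had one in KO, against 8.36% of such genes, and 8 in KI, against 15.7%. Myeloid markers had one in KI alone, at 3 of 6 genes (Mpo, Csf1r and S100a8). Their KI scores were 68.1, 68.9 and 59.6, at percentiles 29.2, 30.0 and 17.1. All lay below 78.0, where the KI list ended at equal list size, so that shorter list lacks them. Megakaryocyte markers had one at 1 of 4 genes in WT (Pf4), at 3 in KO (Pf4, Gp9 and Itga2b) and at 3 in KI (Pf4, Itga2b and Gp1ba). Of 5 erythroid markers, Epor had one in KO and KI. Of 6 endothelial and stromal markers, Col1a1 had one in KO and KI and Pdgfrb in KI alone. The B cell marker Ebf1 had one in WT and KI, and no T or NK marker had one in any list. The KI peaks of Itga2b (59.2), Pdgfrb (71.2) and Ebf1 (71.4) also scored below 78.0. Those of Pf4 (149.8), Gp1ba (107.5), Epor (133.3) and Col1a1 (91.1) scored above it. The peaks of Csf1r, Col1a1 and Pdgfrb were read at either gene end. In a bulk library a peak cannot show whether all cells or a part of them are open there, and the part of cell mixture in the differences at Hif1an and Egln1 was not tested.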

How the data were processed

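The data are ATAC-seq peak lists of sorted HSC, 1 library each of WT, KO and KI. The 12 RNA-seq samples were not analysed here. Each list has 5 columns without a header and peak names of the form MACS gives. The score in column 5 is as the authors deposited it, with a lowest value of 50 in KO and KI and 50.01 in WT. CASAVA and the build mm10 are named per the submitters' processing notes. Not given in the sources used here are the version of MACS, how reads were aligned, duplicate removal, transposase shift, control and filters. Read depth is unknown. A deeper library gives more weak peaks at one threshold, so absence from a list can reflect the calling threshold.

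Peaks of the autosomes 1 to 19 and of X and Y entered, with starts converted to 1-based. A peak was near a gene when it overlapped the gene body or 50 kb either side. It was absent from another list when no peak there overlapped it by 1 bp. Gene spans came from RefSeq GRCm38.p6, and starts from its promoter table, which covers 9 of the 10 genes. Other genes without a start were read at either end. Python 3.11.15, pandas 2.3.3 and numpy 2.4.6 were used, and the overlap code was tested on simulated lists. All members and all their peaks are named, as are neighbouring genes at a peak and each gene of the pathway list that differed. Alternatives were another overlap, list size, score threshold, flank and start window. Some genes of the cell type marker lists are not reported here and were left out of the counts. The genes, lists and rules were chosen with earlier results of these data known. With 1 library per genotype no test was run and no p-value is given.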

Additional observations from a re-analysis of the deposited data

How the results depend on the processing

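The number of members with a start peak stayed within 1.5 times under every alternative tried. It was 7 in WT, 6 in KO and 7 in KI with scores of 100 or more. The share over all genes at that threshold is not given here. The start peak of Hif1a was missed in all lists when either annotated end of each gene was used in place of the RefSeq start, an alternative chosen after seeing the data. At equal list size the start peaks of Hif1an in KI and of Egln1 in KO and KI were still listed. The absence of Hif1an from KO and of Egln1 from WT could not change there or at start windows of 500 and 2500 bp, since a shorter list adds no peak and the nearest peaks lie well outside these windows. With scores of 100 or more the Hif1an start peak was in KI alone and that of Egln1 in no list.

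With scores of 100 or more, 16 WT, 15 KO and 21 KI peaks were near the members. Then 3 KO and 7 KI peaks were absent from WT, 6 KI peaks from KO and 0 KO peaks from KI. At equal list size 24 KI peaks were near, with 3 absent from WT and 2 from KO, while 9 WT and 10 KO peaks were absent from KI. Flanks of 10 kb left 15 WT, 17 KO and 19 KI peaks. Of these, 2 WT peaks were absent from KO, 4 KO and 6 KI peaks from WT, and 5 KI peaks from KO. With flanks of 100 kb, 16 KI peaks were absent from KO. When 50% of a peak had to be covered, 5 WT peaks were absent from KI. Except at equal list size, shares over all peaks are not given for these alternatives. Their counts are therefore not read as particular to the members. Of the 57 counts over the members recomputed under alternatives, 36 stayed within 1.5 times. The cause of the other changes was not tested, beyond the fewer or more peaks that each alternative admits. No paired analysis was possible because the peak lists come from 1 library per genotype and no test was run. Read depth is unknown, so a missing peak may be a weaker one.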
